A study of Homo sapiens with 10 samples.

Results

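The genes described here are 44 genes that copy DNA, supply its building blocks or carry cells through mitosis, and that are transcribed in dividing cells. They were compared between a cyclophosphamide-resistant subline and the sensitive cells of a human line from chronic myeloid leukaemia, in which the BCR-ABL kinase drives proliferation. Cyclophosphamide is an alkylating prodrug whose metabolites crosslink DNA. The members were taken by symbol from a named list, as all probe sets that the platform annotation assigns to 1 symbol of that list. The list was drawn up with earlier results of these data known. The rule found 61 probe sets for 42 of the 44 genes, out of 12558 probe sets and 8226 genes on the array. Of the 42 genes, 27 had 1 probe set, 11 had 2 and 4 had 3. GMNN, the inhibitor of origin licensing, had no probe set with its symbol. CENPA, the centromeric histone H3 variant, had only 1 probe set, shared in the annotation with SLC35F6. Each gene was represented by its brightest probe set (by mean log2 signal over the arrays), and the other probe sets are given beside it where they differ.

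As background, a cell prepares to copy its genome by loading the ring-shaped MCM helicase onto DNA at origins, with the help of ORC, CDC6 and CDT1. The loaded helicase is switched on in S phase by kinases and by CDC45. Many genes of this step, and of nucleotide supply, are activated by E2F transcription factors. Genes of mitosis peak later, in G2 and M phase, and are driven by MYBL2 and FOXM1 together with the factor NF-Y, which binds CCAAT boxes. Because most of these transcripts are present mainly in cycling cells, the group is widely used as a measure of proliferation. In bulk samples such as these, fewer cycling cells and less RNA per cell cannot be told apart.

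The 10 arrays held 5 samples titled resistant and 5 titled sensitive. All were grown in culture medium, and the labels give neither the name of the line nor whether the drug was present. The resistant cells are 1 subline, and it is not stated whether the samples of a group are separate cultures. The p-values therefore reflect only the scatter among these arrays, which may be technical. Values are MAS5 signals, a linear intensity per probe set that the authors had scaled to a common level on every array, so each value is relative to the whole array. An array's limit was the 95th percentile of the signals of 32 control probe sets without a human target, and lay between 319.7 and 739.8. The share of probe sets above it was 54.9% ± 4.35 in resistant arrays and 55.1% ± 2.6 in sensitive arrays (SD, n = 5 each), and precision is limited by there being 10 arrays. Of 9 granulocytic markers, 1 was above the limit on at least 3 resistant arrays and 8 on at least 3 sensitive arrays, with summed signals of 2012 to 3158 and of 203809 to 358700. Of 6 measured erythroid markers the counts were 5 and 4 (summed signals 13981 to 20102 and 4363 to 10247), of 4 megakaryocytic markers 1 and 1 (11712 to 19808 and 971 to 1898), and of 5 monocytic markers 2 and 1 (1839 to 3966 and 960.5 to 1839). In limma, 8 granulocytic markers were called lower in resistant arrays, and 1 erythroid, 1 megakaryocytic and 1 monocytic marker higher. Of 4 measured B lymphoid, 5 T lymphoid and 7 stromal or epithelial markers, 0, 1 and 1 were above the limit on at least 3 resistant arrays, and 1, 2 and 2 on at least 3 sensitive arrays. Summed signals on resistant and on sensitive arrays were 492 to 1137 and 300 to 1602 for the B lymphoid markers. They were 1136 to 1940.5 and 1443 to 2091 for T lymphoid, and 3786 to 6584 and 3774 to 8207 for stromal or epithelial markers. Not above the limit on any array were EPB42 (erythroid), GP9, PF4 and PPBP (megakaryocytic), and CD14 and FCN1 (monocytic). The same held for CD79B and MS4A1 (B lymphoid), CD3D and CD3G (T lymphoid), and COL1A2, COL3A1, KRT18 and EPCAM (stromal or epithelial). The part of these lineage markers in the results below was not tested.

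The signals of the replication and mitosis genes lay close together in resistant and sensitive cells. The log2 difference was taken as resistant minus sensitive on the scale of log2(signal + 114.8), and was tested with limma, adjusted by the Benjamini-Hochberg method over all 12558 probe sets. None of the 61 member probe sets was called at an adjusted p under 0.05 (0 higher, 0 lower, lowest adjusted p = 0.138), whereas 931 of all 12558 probe sets were called (7.41%), or 8.29% of the 4971 probe sets that were above the limit on all 10 arrays. Because the members were chosen with earlier results known, the contrast with these shares is a description and not a test. Counted by gene, 0 of 42 were called, against 8.4% of all 8226 genes. The same share stands beside the counts by role below, where 4 to 11 genes are few enough that 0 called says little. At an unadjusted p under 0.05 there was 1 member probe set, of CCNA2, against 17.9% of all probe sets. By two-sided exact permutation of single probe sets, 4 of 61 had a p under 0.05, those of CCNA2, TK1, BUB1 and MKI67, against 17.9% of all probe sets by the same test, or 25% of those above the limit on all arrays. The lowest was 0.0159, and 0.00794 is the smallest p that 5 against 5 arrays can give. In 0 of the 61 were the signals of the groups free of overlap, against 8.5% of all probe sets. The brightest probe set of CCNA2 was called lower in resistant arrays under 2 alternative settings of limma, with dim probe sets removed (adjusted p = 0.0452) and with an intensity trend in the variance (adjusted p = 0.0238).

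The precision allowed differences of moderate size between these arrays to be bounded, which a p-value alone does not do. The intervals, like the p-values, reflect only the scatter among these arrays. Among the 42 genes the median log2 difference was -0.0039, against 0.03 over all 8226 genes, and 21 differences were above 0 and 21 below. The even split depends on the scaling: with arrays scaled to a common median, 11 were above 0 and 31 below, and the medians of the members and of all genes were -0.13 and -0.07. The median size of the difference was 0.13 on the log2 scale, a 1.09-fold difference, against 0.23 or 1.17-fold in all probe sets above the limit on all arrays. The median standard error was 0.20 in the members and 0.21 in those probe sets. All 42 genes differed by less than 1.5-fold, against 85.0% of the probe sets above the limit. The 95% interval of the difference lay within 2-fold in either direction for 39 of 42 genes (92.9%), and within 1.5-fold for 23 of 42 (54.8%), against 79.7% and 30.4% of the probe sets above the limit. The intervals of CDC6, RRM2 and UBE2C reached beyond 2-fold.

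**Figure D1:**
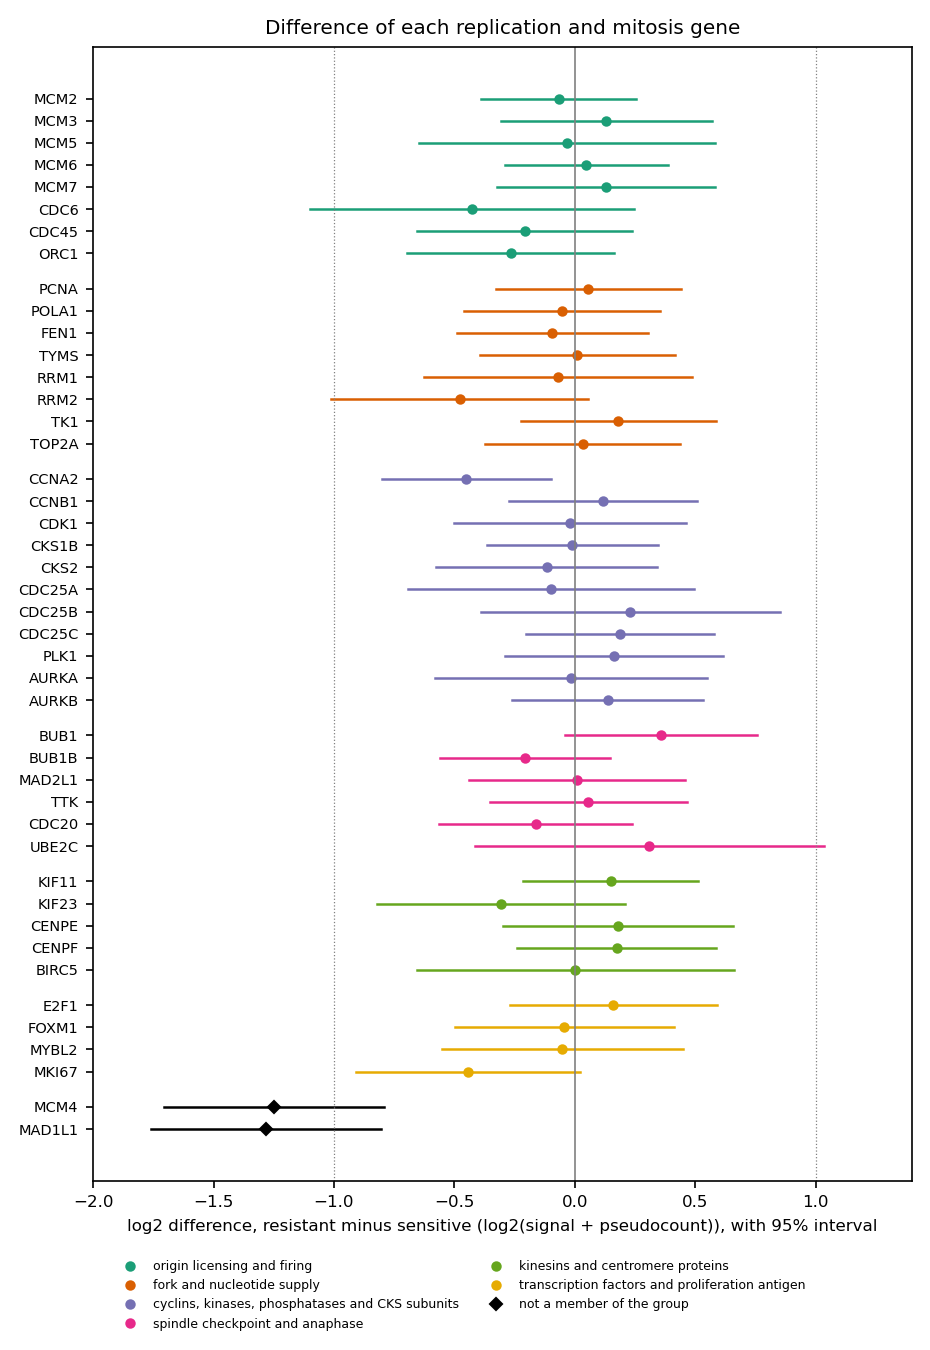
Log2 difference, resistant minus sensitive, of the 42 measured replication and mitosis genes by role, with 95% intervals from limma, and dotted lines at a 2-fold difference. All 42 points lie within 1.5-fold, while MCM4 and MAD1L1, which are not members and are shown in black, lie beyond 2-fold to the left.

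**Figure D2:**
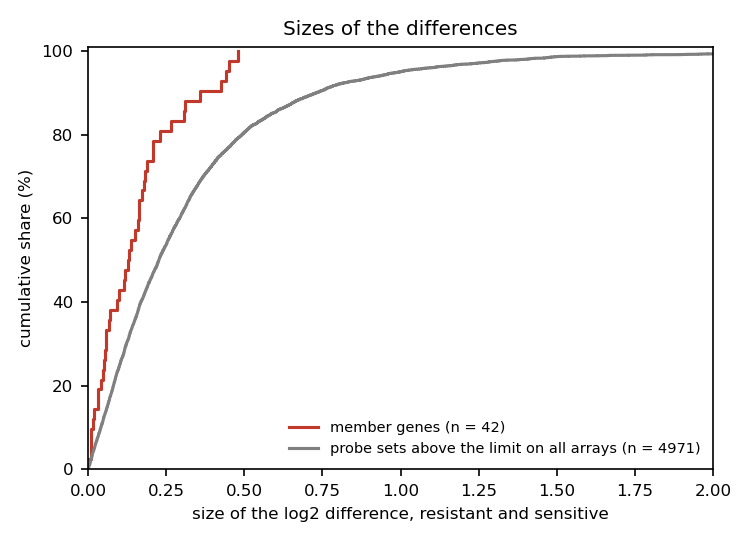
Cumulative share of features against the size of the log2 difference between resistant and sensitive arrays, for the 42 member genes and for the 4971 probe sets above the limit on all arrays (the horizontal axis ends at 2). The curve of the members reaches its end before 0.5 on the log2 scale, and 85.0% of the other curve lies below 1.5-fold.

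What many of these genes share is the make-up of their promoters, and 4 are printed because they show the 3 kinds of element. The RefSeq table of promoter windows (GRCh38.p14, 250 bases before to 50 after a gene's first listed start) held 36 of the 42 genes. The letters searched, on both strands, were CCAAT, the box bound by NF-Y, TTTGAA or TTCGAA, forms of the cell cycle genes homology region (CHR) of mitotic promoters, and GCGGGAA or GCGCGAA, forms of the E2F site. Capitals mark the matches, in the order 5′ to 3′ on the gene's strand.
PLK1 (chr16:23678639-23678938, plus strand): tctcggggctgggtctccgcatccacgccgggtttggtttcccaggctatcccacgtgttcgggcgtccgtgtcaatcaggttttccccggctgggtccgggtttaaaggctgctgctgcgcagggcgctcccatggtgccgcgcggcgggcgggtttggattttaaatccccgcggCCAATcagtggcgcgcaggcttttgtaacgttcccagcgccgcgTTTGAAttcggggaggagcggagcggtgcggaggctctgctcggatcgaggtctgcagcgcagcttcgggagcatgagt
KIF11 (chr10:92592880-92593179, plus strand): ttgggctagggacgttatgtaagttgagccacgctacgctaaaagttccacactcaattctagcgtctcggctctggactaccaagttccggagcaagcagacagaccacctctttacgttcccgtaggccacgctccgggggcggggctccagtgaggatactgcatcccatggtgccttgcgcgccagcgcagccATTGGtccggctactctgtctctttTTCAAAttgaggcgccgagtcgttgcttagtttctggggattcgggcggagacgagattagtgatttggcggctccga
MCM3 (chr6:52284693-52284992, minus strand): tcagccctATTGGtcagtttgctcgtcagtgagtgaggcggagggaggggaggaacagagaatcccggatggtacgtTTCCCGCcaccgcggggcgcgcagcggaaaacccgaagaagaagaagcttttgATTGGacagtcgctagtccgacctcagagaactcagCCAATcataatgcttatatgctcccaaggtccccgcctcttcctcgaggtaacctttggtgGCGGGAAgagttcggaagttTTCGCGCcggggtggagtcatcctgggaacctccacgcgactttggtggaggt
PCNA (chr20:5126573-5126872, minus strand): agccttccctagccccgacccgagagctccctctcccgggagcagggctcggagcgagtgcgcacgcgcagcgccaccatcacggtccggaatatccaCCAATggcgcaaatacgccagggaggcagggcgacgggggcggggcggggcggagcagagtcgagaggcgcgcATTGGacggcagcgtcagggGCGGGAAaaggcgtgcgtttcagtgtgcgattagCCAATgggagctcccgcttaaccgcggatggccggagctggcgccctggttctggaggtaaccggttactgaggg
In the mitotic genes PLK1 and KIF11 a CCAAT box, starting at -73 and -53 relative to the gene's start, stands upstream of a CHR form at -29 and -28. The replication genes MCM3 and PCNA hold E2F forms instead, at -173, -23 and -3 in MCM3 and at -59 in PCNA, each with 3 CCAAT boxes.

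CCAAT was found in 27 of 36 member promoters (75.0%), against 36.8% of 6618 promoters of genes on the array. The CHR forms were found in 15 of 36 (41.7%) against 12.4%, and the E2F forms in 14 of 36 (38.9%) against 12.6%. Both CCAAT and a CHR form stood in 14 of 36 (38.9%), against 5.08%. The median share of G and C was 63.8% in the members and 64.0% in the promoters of genes on the array. By role, the E2F forms were found in 5 of 7 origin genes and 0 of 4 kinesin and centromere genes, and the CHR forms in 1 of 7 and 3 of 4, and in all 4 spindle checkpoint and anaphase genes with a window. Of those 4, 1 also held an E2F form. Among cyclins, kinases, phosphatases and CKS subunits, each of the 2 kinds was found in 4 of 10. Fork and nucleotide supply genes held E2F forms in 4 of 8 and CHR forms in 2 of 8, so the roles were not cleanly divided. These matches are a description of the letters and show no binding. Genes of all 3 kinds of promoter are among those whose differences are given by role below.

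Among the genes of origin licensing and firing, 0 of 8 were called, and the median log2 difference was -0.05. MCM7, a subunit of the MCM helicase, had signals of 44299, 37460.3, 47423, 31552 and 26432 on the 5 resistant arrays, against 35346, 39914, 35859.8, 30994 and 26822 on the 5 sensitive arrays. The groups overlapped over most of their range, and the log2 difference was 0.13 (95% interval -0.32 to 0.58, adjusted p = 0.832). MCM2, another subunit, was 27747 ± 1634 in resistant arrays and 29066 ± 1214 in sensitive arrays (SD, n = 5 each), a log2 difference of -0.07 (interval -0.39 to 0.25), the narrowest interval of all members. MCM6 was 34015 ± 2542 in resistant arrays and 32949 ± 2983 in sensitive arrays, a log2 difference of 0.05 (interval -0.29 to 0.39). MCM3 differed by 0.13 (interval -0.31 to 0.57) and MCM5 by -0.03 (interval -0.65 to 0.58). The loading factor gene CDC6 had 3053, 3098, 8104, 3998 and 3117 on the 5 resistant arrays, against 5014, 5129, 8782, 5366 and 3603 on the 5 sensitive arrays. Its signals were high on replicate 3 of both groups. Elsewhere they overlapped only in that resistant replicate 4 lay above sensitive replicate 5. The log2 difference was -0.43 (95% interval -1.10 to 0.25, adjusted p = 0.547), and from -0.68 to -0.25 with each array left out in turn. The other probe set of CDC6 gave -0.33 (interval -0.83 to 0.17). CDC45, part of the active helicase, differed by -0.21 (interval -0.65 to 0.24) and ORC1, the largest subunit of the origin recognition complex, by -0.27 (interval -0.70 to 0.16).

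MCM4, the subunit of the same helicase that is not a member of the group, was lower in resistant cells. Its signals were 6075, 9094, 6152, 6247 and 5479 on the 5 resistant arrays, against 19532, 18967, 16182, 12270.1 and 12694 on the 5 sensitive arrays. Every resistant array lay below every sensitive one, the mean was 6609.6 ± 1421 in resistant arrays and 15929 ± 3396 in sensitive arrays (SD, n = 5 each), and the log2 difference was -1.25 (95% interval -1.71 to -0.79, adjusted p = 0.00251), a 2.38-fold decrease in limma, with a ratio of the means of 0.415. Its interval does not overlap with those of MCM2, MCM3, MCM5, MCM6 or MCM7, though the difference between the subunits was not itself tested. The gene lies on chromosome 8, where 79 of 400 probe sets with 1 symbol were called lower (19.8%), against 2.99% of all probe sets. None of the 42 measured members lies on chromosome 8; they are spread over 18 chromosomes. The other genes of the replication and mitosis lists on chromosome 8 were E2F5 (log2 difference -0.60), MYBL1 (-0.45) and RAD21 (-0.24), with adjusted p-values of 0.25, 0.562 and 0.6 in limma, named here for their chromosome after their values were seen. The part of the chromosome in the value of MCM4 was not tested.

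**Figure D3:**
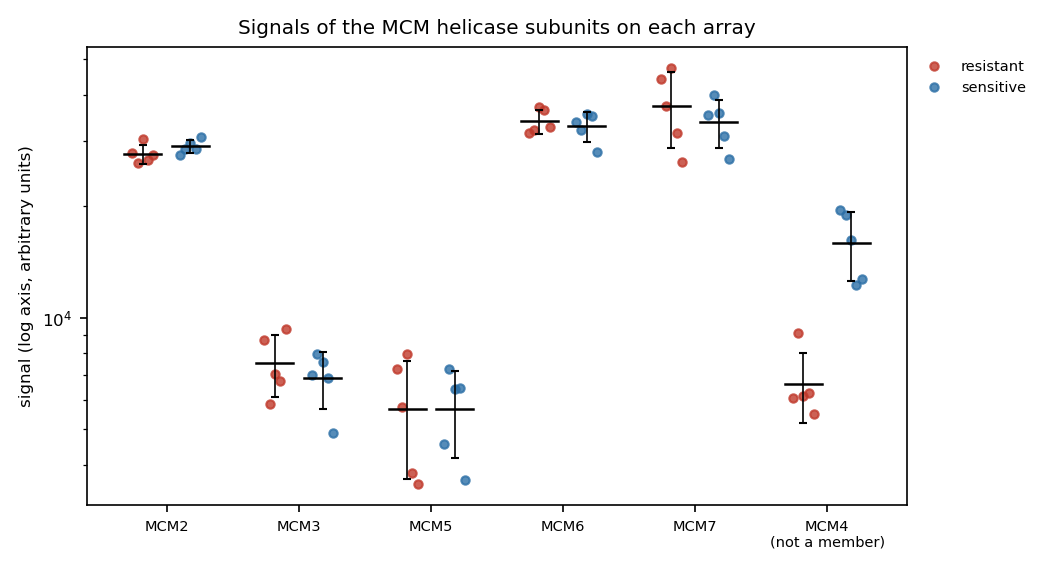
Signals of the MCM helicase subunits on each array (log axis, arbitrary units). Points are the 5 resistant arrays in red and the 5 sensitive arrays in blue, with the mean as a bar and the SD as an error bar. The groups overlap for the 5 members and are separate for MCM4, where resistant arrays reach 9094.5 at most and sensitive arrays 12270.1 at least.

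Of the genes of the replication fork and of nucleotide supply, 0 of 8 were called, and the median log2 difference was -0.02. PCNA, the sliding clamp of DNA polymerases, had signals of 37706, 41515, 47879.8, 41053 and 34905 on the 5 resistant arrays, against 37719, 40381, 49683, 34932 and 33380.1 on the 5 sensitive arrays. Replicate 3 was the highest of both groups, and the groups overlapped throughout. The log2 difference was 0.06 (95% interval -0.33 to 0.44, adjusted p = 0.922), and -0.05 (interval -0.48 to 0.38) in the other probe set. RRM2, the regulated subunit of ribonucleotide reductase, had 2587, 2858, 2716, 2883 and 1580.3 on the 5 resistant arrays, against 4825, 3796, 4189.9, 2914 and 2292 on the 5 sensitive arrays. Of the resistant arrays, 4 lay between 2586.6 and 2882.7, replicate 5 lower still, and 2 sensitive arrays fell within the resistant range or just above it. The difference, -0.48 (95% interval -1.01 to 0.05, adjusted p = 0.343), was the largest of this role and did not pass the test. RRM1, the other subunit, differed by -0.07 (interval -0.63 to 0.49). Thymidylate synthase, TYMS, the target of fluoropyrimidine drugs, was 27972 ± 2074 in resistant arrays and 28208 ± 5698 in sensitive arrays (SD, n = 5 each), a log2 difference of 0.01 (interval -0.40 to 0.41). Thymidine kinase, TK1, differed by 0.18 (interval -0.22 to 0.59) and by 0.22 (interval -0.12 to 0.57) in its 2 probe sets. TOP2A, the topoisomerase that untangles sister chromatids, was 19126 ± 2688 in resistant arrays and 18755 ± 3188 in sensitive arrays, a log2 difference of 0.03 (interval -0.37 to 0.44). Its other probe sets gave -0.00 (interval -0.38 to 0.37) and -0.43 (interval -0.99 to 0.12). The polymerase alpha subunit POLA1 differed by -0.05 (interval -0.46 to 0.35) and the flap endonuclease FEN1 by -0.09 (interval -0.49 to 0.30), with -0.28 (interval -0.71 to 0.15) and -0.05 (interval -0.64 to 0.54) in its dimmer probe sets.

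Among cyclins, mitotic kinases, CDC25 phosphatases and CKS subunits, 0 of 11 were called, and the median log2 difference was -0.01. CCNA2, cyclin A2, which acts from S phase to early mitosis, had the lowest p of all members. Its signals were 14535, 17084, 14716, 13407 and 14674 on the 5 resistant arrays, against 20549, 20737, 23330.1, 17071 and 20380.1 on the 5 sensitive arrays. Only resistant replicate 2 reached into the sensitive range, just above sensitive replicate 4. The log2 difference was -0.45 (95% interval -0.80 to -0.10, adjusted p = 0.138), with an exact permutation p of 0.0159. The other probe set was 14638 ± 1949 in resistant arrays and 16706 ± 2582 in sensitive arrays (SD, n = 5 each), a log2 difference of -0.19 (interval -0.58 to 0.20). Over both probe sets cyclin A2 was lower on average in resistant arrays, without passing the test.

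The brightest probe sets of the other members of this role differed less. CCNB1, cyclin B1, the partner of CDK1 in mitosis, was 18833 ± 2493 in resistant arrays and 17404 ± 2655 in sensitive arrays, a log2 difference of 0.12 (interval -0.27 to 0.51), and 0.17 (interval -0.22 to 0.57) in its other probe set. CDK1 itself was 17882 ± 5146 in resistant arrays and 17669 ± 2411 in sensitive arrays, a log2 difference of -0.02 (interval -0.50 to 0.46). Its 2 dimmer probe sets gave 0.34 (interval -0.07 to 0.75) and 0.27 (interval -0.31 to 0.85), so that the probe sets of CDK1 differed in sign. CKS2, a small subunit of cyclin-dependent kinases, had signals of 25899.8, 37169, 33797, 42628 and 42403 on the 5 resistant arrays, against 45274, 39765, 35760.3, 28497 and 48129 on the 5 sensitive arrays. The lowest signal was that of resistant replicate 1 and the groups overlapped, with a log2 difference of -0.12 (95% interval -0.57 to 0.34, adjusted p = 0.855). CKS1B differed by -0.01 (interval -0.36 to 0.34). PLK1, the polo-like kinase of mitotic entry, was 9935 ± 1992 in resistant arrays and 8914 ± 2160.4 in sensitive arrays, a log2 difference of 0.16 (interval -0.29 to 0.62). The aurora kinase gene AURKA, which acts at spindle poles, differed by -0.02 (interval -0.58 to 0.55) and AURKB, which acts at centromeres, by 0.14 (interval -0.26 to 0.53). Of the phosphatases that activate cyclin-dependent kinases, CDC25A differed by -0.10 (interval -0.69 to 0.49), CDC25B by 0.23 (interval -0.39 to 0.85) and CDC25C by 0.19 (interval -0.20 to 0.58). The dimmer probe set of CDC25A gave -0.52 (interval -1.06 to 0.02).

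Of the genes of the spindle checkpoint and of anaphase, 0 of 6 were called, and the median log2 difference was 0.03. CDC20, the activator of the anaphase-promoting complex, had signals of 10822, 8953, 7850.5, 7578 and 8668 on the 5 resistant arrays, against 10581, 9818, 12015, 7543 and 9366 on the 5 sensitive arrays. The groups overlapped, and the log2 difference was -0.16 (95% interval -0.56 to 0.24, adjusted p = 0.733). BUB1, a checkpoint kinase at kinetochores, had 5267, 4556, 4182, 5666 and 6455 on the 5 resistant arrays, against 4086, 3289.7, 4190.4, 3757 and 4865 on the 5 sensitive arrays. Of the resistant arrays, 3 lay above all sensitive ones and 2 among them, a log2 difference of 0.36 (95% interval -0.04 to 0.76, adjusted p = 0.346) with an exact permutation p of 0.0476. BUB1B, its relative, lay the other way, at -0.21 (interval -0.56 to 0.15). TTK, the kinase at the top of the checkpoint, differed by 0.06 (interval -0.35 to 0.46). UBE2C, a ubiquitin-conjugating enzyme of the anaphase-promoting complex, was above the limit on only 4 of 10 arrays. Its values, 503 ± 152 in resistant arrays and 419 ± 219 in sensitive arrays (SD, n = 5 each), were close to the control signals, and the log2 difference was 0.31 (interval -0.42 to 1.03). MAD2L1, the checkpoint protein that holds CDC20 back, was 5033 ± 973 in resistant arrays and 5007 ± 1002 in sensitive arrays, a log2 difference of 0.01 (interval -0.44 to 0.46). Another probe set gave -0.15 (interval -0.65 to 0.36), and the dimmest stayed below the limit on all arrays.

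MAD1L1, which recruits MAD2L1 to kinetochores and is not a member of the group, was lower in resistant cells. It had signals of 3419, 4273, 3457, 3637 and 3029 on the 5 resistant arrays, against 9479.5, 10782, 6214, 6764 and 12115 on the 5 sensitive arrays. All resistant arrays lay below all sensitive ones, at 3563 ± 454 in resistant arrays and 9071 ± 2542 in sensitive arrays (SD, n = 5 each). The difference of -1.28 (95% interval -1.76 to -0.81, adjusted p = 0.00284) was 2.43-fold downward in limma. It was measured by 1 probe set and lies on chromosome 7, where 11 of 499 probe sets with 1 symbol were called lower (2.2%). The interval of MAD1L1 does not overlap with those of the 2 measured probe sets of its partner MAD2L1 that lay above the limit, and the difference between the 2 genes was not tested.

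**Figure D4:**
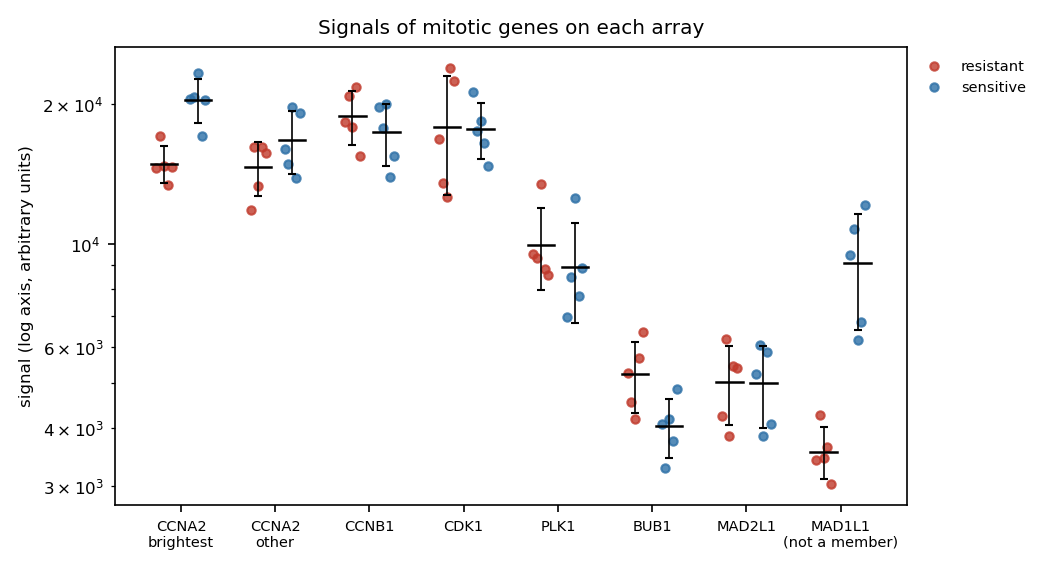
Signals of mitotic genes on each array (log axis, arbitrary units), with the 5 resistant arrays in red left of the 5 sensitive arrays in blue, the mean as a bar and the SD as an error bar. Both probe sets of CCNA2 lie lower on average in resistant arrays, CCNB1, CDK1, PLK1 and MAD2L1 overlap, 3 resistant arrays of BUB1 lie above all sensitive ones, and the groups of MAD1L1, which is not a member, are separate.

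Among kinesins and centromere proteins, 0 of 5 were called, and the median log2 difference was 0.15. KIF11, the motor that separates the spindle poles, had 10298, 10506, 9497, 10039 and 10794 on the 5 resistant arrays, against 8987, 8217, 11671, 9774 and 7836 on the 5 sensitive arrays. The resistant arrays varied little (coefficient of variation 4.82%) and lay inside the sensitive range, and the log2 difference was 0.15 (95% interval -0.21 to 0.51, adjusted p = 0.73). KIF23, a motor of the central spindle in cytokinesis, had 1586, 2586, 2404, 1880.2 and 2230.5 on the 5 resistant arrays, against 1661, 2237, 2831, 3725 and 3194 on the 5 sensitive arrays. Sensitive replicate 4 was the highest and the groups overlapped, with a log2 difference of -0.31 (95% interval -0.82 to 0.21, adjusted p = 0.58). The kinetochore motor gene CENPE differed by 0.18 (interval -0.30 to 0.66) and the kinetochore protein gene CENPF by 0.17 (interval -0.24 to 0.59). BIRC5, survivin, a subunit of the chromosomal passenger complex and an inhibitor of apoptosis, was 1358 ± 662 in resistant arrays and 1291 ± 376 in sensitive arrays (SD, n = 5 each), a log2 difference of 0.00 (interval -0.66 to 0.66). Its dimmer probe set, above the limit on 4 of 10 arrays, gave 0.60 (interval -0.10 to 1.30). The probe set annotated to both CENPA and SLC35F6 cannot be assigned to either gene alone. It was 13439 in resistant and 13798 in sensitive arrays on average (difference -0.03, interval -0.49 to 0.43).

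Of the 3 transcription factors and the proliferation antigen Ki-67, 0 of 4 were called, and the median log2 difference was -0.05. FOXM1, which activates mitotic genes, had 4930.4, 3352, 3978, 4374 and 3560.3 on the 5 resistant arrays, against 3555, 4272, 6230.3, 3252 and 3873 on the 5 sensitive arrays. Sensitive replicate 3 was the highest and the other arrays of both groups overlapped, with a log2 difference of -0.04 (95% interval -0.50 to 0.41, adjusted p = 0.954). MYBL2, its partner on mitotic promoters, differed by -0.05 (interval -0.55 to 0.45) and E2F1, the activator of S phase genes, by 0.16 (interval -0.27 to 0.59), with 0.30 (interval -0.35 to 0.96) in its dimmer probe set. MKI67, which encodes the Ki-67 antigen used to count cycling cells, had 2440.3, 2718, 3543, 2476 and 1914 on the 5 resistant arrays, against 3142, 3440.3, 5178, 3169 and 3089.5 on the 5 sensitive arrays. Sensitive replicate 3 stood far above the other arrays, and resistant replicate 3 was the only resistant array in the sensitive range. The log2 difference was -0.44 (95% interval -0.91 to 0.02, adjusted p = 0.31), with an exact permutation p of 0.0397, and -0.08 (interval -0.53 to 0.37) in its other probe set. Without sensitive replicate 3 it was -0.31 and 0.04 in the 2 probe sets (adjusted p = 0.481 and 0.955 in limma). With each array left out in turn, the difference ranged from -0.55 to -0.31 and from -0.17 to 0.04 in these probe sets.

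Of the 15 genes with several probe sets, 11 had differences of 1 sign throughout, and the median spread between a gene's probe sets was 0.16 on the log2 scale, close to the standard error of a single one. Of the 61 probe sets, 56 were above the limit on all 10 arrays. Within a group, the coefficient of variation of the 42 genes had a median of 19.0% in resistant arrays, from 4.82% in KIF11 to 50.9% in CDC6, and of 17.6% in sensitive arrays, from 4.18% in MCM2 to 52.2% in UBE2C.

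One sensitive array stood apart for the group as a whole. On sensitive replicate 3, 21 of the 42 genes had the highest signal of the 5 sensitive arrays and 5 the lowest, and the median member was 1.2 times the mean of the other 4. On resistant arrays the same ratio was 0.977 to 1.06, and on the other sensitive arrays 0.923 to 1.01. The 1.06 was that of resistant replicate 3, where 13 of the 42 genes had the highest signal of the resistant arrays and 10 the lowest. For sensitive replicate 3 the limit and the share of probe sets above it, 640 and 52.7%, were within the range of the other arrays. Without sensitive replicate 3 the median difference of the 42 genes was 0.05, against 0.05 over all genes. In that fit 0 members were called in limma, with 2 at an unadjusted p under 0.05. Across the 10 arrays, after the group means were taken out, 18 of 42 genes had a Pearson correlation above 0.5 with the mean of the other members and 12 a negative one, with PCNA (0.89) and MKI67 (0.82) the highest. The median correlation between 2 members was 0.09, against 0.0025 between any 2 genes above the limit, so the group moved together only weakly from array to array. The genes outside the group whose pattern was most like the members' mean over the 10 arrays were MT1E (Pearson's r 0.94), EWSR1 (0.94), PPP2CA (0.94), APC2 (0.93) and MT1B (0.92), none of them called between the groups. They head a search among the genes above the limit on all arrays, 3715 with the members. The highest of so many correlations over 10 arrays can be large without any relation between the genes. Arrays share a common scaling, and sensitive replicate 3 enters each of these correlations.

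**Figure D5:**
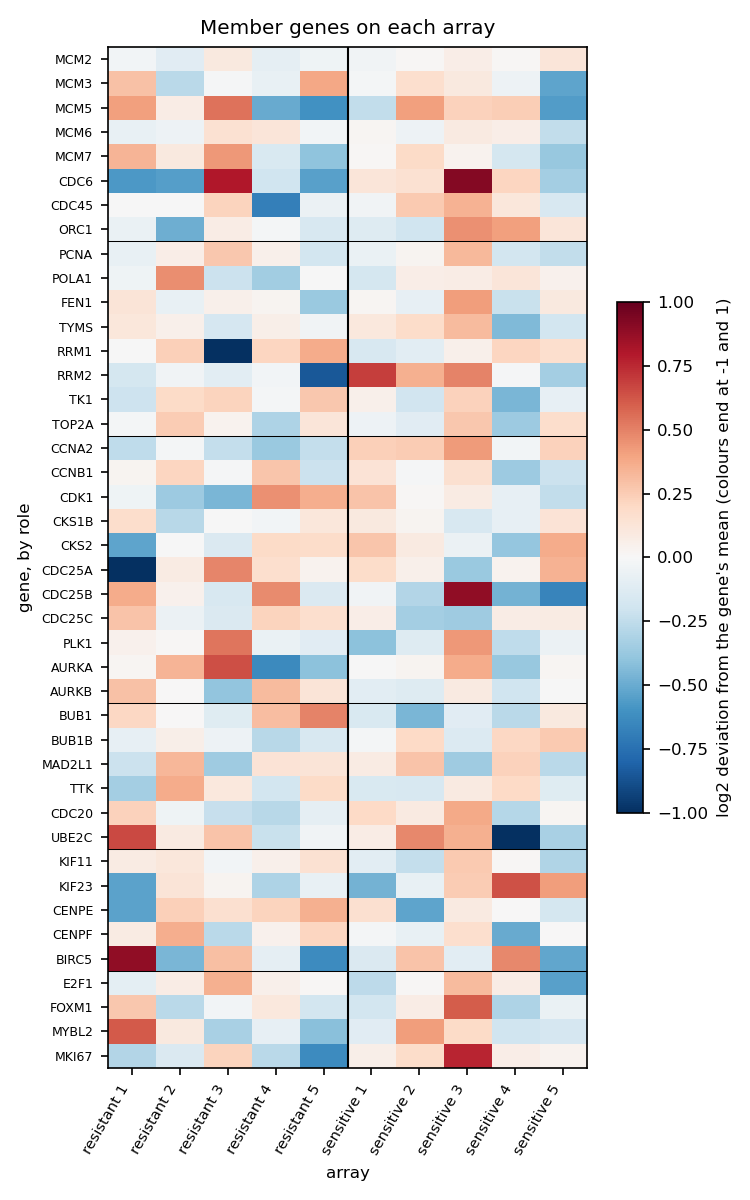
Deviation of each of the 42 genes from its own mean over the 10 arrays, on the log2 scale (red higher, blue lower, colours ending at -1 and 1), with resistant arrays left of the line and sensitive arrays right of it. Red is most frequent in the column of sensitive replicate 3, where 21 genes had the highest signal of their group, and the columns otherwise show no common shift between the groups.

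Of further genes of the same processes, 105 were listed by role and 88 measured. By the brightest probe set of each gene, 2 of 88 were called lower in limma, MCM4 and MAD1L1, and 0 higher, against 2.99% and 4.42% of all probe sets. At an unadjusted p under 0.05 there were 14 (15.9%), 6 higher and 8 lower, against 19.4% of all genes and 21.3% of genes above the limit on all arrays. The signals of the groups did not overlap in 6 of 88 (6.82%), against 9.88% of all genes and 11.9% of genes above the limit on all arrays. The median log2 difference was 0.08. These shares over all genes stand beside each list below too, and lists of 10 to 26 genes are short for such counts. Of 26 measured genes of the fork and of nucleotide supply, such as other polymerase, RFC and RPA subunits, 0 were called and 1 had an unadjusted p under 0.05. Of 17 genes of chromosome structure and separation, such as cohesin, condensin and subunits of the anaphase-promoting complex, 0 were called and 1 had an unadjusted p under 0.05, and all 17 intervals lay within 2-fold. Of 11 genes of mitotic entry 0 were called, 1 with an unadjusted p under 0.05, and all 11 intervals lay within 2-fold. Of 10 genes of origin licensing 3 had an unadjusted p under 0.05, and of 13 of the spindle and kinetochore 4 had, with MCM4 and MAD1L1 called. Of 11 E2F, pocket protein and MYB regulators, which include the repressors of the group's own promoters, 0 were called by their brightest probe sets, with 4 at an unadjusted p below 0.05, 1 of them higher and 3 lower. Of their intervals 3 of 11 lay within 2-fold. The median log2 difference of this list was -0.45, with a median standard error of 0.26, so that it is bounded less tightly than the members. Its 11 differences were split, 5 above 0 and 6 below, and ran from -0.84 to 0.68. The median is the value of MYBL1, which was above the limit on only 1 resistant and 3 sensitive arrays.

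In this list TFDP1, the DNA-binding partner of E2F factors, is described for its 2 probe sets, after their values were seen. The dimmer one had signals of 2128, 1253, 1636, 1210.4 and 1304 on the 5 resistant arrays, against 4034, 3777, 4694, 2715 and 3940.3 on the 5 sensitive arrays. All resistant arrays lay below all sensitive ones, and the log2 difference was -1.29 (95% interval -1.75 to -0.83, adjusted p = 0.00218) in limma. The brightest one had 9174, 6367, 7537, 4835 and 4062 on the 5 resistant arrays, against 11698, 12229, 10649, 12149 and 8928 on the 5 sensitive arrays. Here resistant replicate 1 reached into the sensitive range, and the log2 difference was -0.84 (95% interval -1.35 to -0.33, adjusted p = 0.0502). With the mean of both probe sets it was -1.07 (adjusted p = 0.00403 in limma). TFDP1 was the only gene of the 88 with a called probe set other than its brightest.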

How the data were processed

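Per the submitters' processing notes, the signals were made with MAS5, and its version and settings are not given here. Per the labels' protocols, biotin-labelled cRNA from total RNA was hybridised with 1 colour. Each deposited value is a linear intensity of 1 probe set. The 2% trimmed mean (2% removed at each end) of the authors' values was 2501.33 to 2501.51 on all 10 arrays. Groups and replicate numbers came from the sample titles.

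Of 12625 probe sets, 67 controls were left out of tests. Symbols came from the platform annotation, updated by Entrez identifier to GRCh38.p14, with 10943 probe sets of 1 symbol and 545 of several. Arrays were rescaled to a common trimmed mean, and log2(signal + 114.8), with the 20th percentile of all signals as pseudocount, was fitted in limma (version 3.58.1, R 4.3.3; lmFit, then eBayes) with group as the single term. The pseudocount shrinks the log2 difference of dim probe sets. Intervals are 95% from the moderated fit, which was tested on simulated data. Figures used matplotlib 3.10.9.

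Members, roles, further lists and markers were chosen with earlier results of these data known. Values on every array are given for the members that lead their role, by mean log2 signal or by size of difference, and further genes are named where called. Alternative scalings, pseudocounts, a filter, a variance trend, the replicate block and arrays left out were tried.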

Additional observations from a re-analysis of the deposited data

Results flagged for a closer look

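In each group of 5 arrays, every member probe set was screened for 1 array that lay far from the other 4, by Dixon's gap over range on the log2 scale. Of 122 groups, 10 were picked out (8.2%), where chance picks about 1 in 20. Replicate 3 of the resistant arrays accounts for 4 of the 10. There, CDC6 was 8104 on resistant replicate 3, above the other 4 resistant arrays at 3053 to 3998, and PLK1 was 13431 on resistant replicate 3, above the other 4 resistant arrays at 8547 to 9527. On the same array CCNB1 was 17839 on resistant replicate 3, above the other 4 resistant arrays at 13574 to 14075, in the dimmer probe set of that gene. The ribonucleotide reductase gene lay the other way, as RRM1 was 2887 on resistant replicate 3, below the other 4 resistant arrays at 5841 to 7606. On the sensitive side, MKI67 was 5178 on sensitive replicate 3, above the other 4 sensitive arrays at 3089.5 to 3440.3. Lower than their group were 3 more. POLA1 was 3483 on sensitive replicate 1, below the other 4 sensitive arrays at 4078 to 4301. RRM2 was 1580.3 on resistant replicate 5, below the other 4 resistant arrays at 2587 to 2883. CENPE was 622 on resistant replicate 1, below the other 4 resistant arrays at 1081 to 1257. The dimmest probe set of MAD2L1, below the limit on all arrays, was picked in both groups, at 254 on resistant replicate 5 with the others at 14.3 to 26.2, and at 260.4 on sensitive replicate 1 with the others at 11.3 to 26.3.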

How the results depend on the processing

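All results were recomputed with arrays scaled to a common median, quantile normalization, pseudocounts of 16 and 398.66, a filter on dim probe sets, an intensity trend in eBayes, the replicate block, each array left out and, per gene, the mean of its probe sets. The count of 0 called members became 1, CCNA2, with dim probe sets (under the median) removed (adjusted p = 0.0452) and with the intensity trend (0.0238), in limma, and stayed 0 under the others. With each array left out it was 0 throughout. The median member difference was -0.133 with arrays scaled to a common median, a scaling that set the median of all genes at -0.0701 in place of 0.0334. It lay between -0.0297 and 0.0485 with any 1 array left out. The count of 2 further genes became 3 with quantile normalization, 6 with the larger pseudocount, 7 with the filter, 8 with the trend and 5 with the mean of probe sets, and was 2 to 3 with 1 array left out. Beside MCM4 and MAD1L1, these added TFDP1 and CDKN3 as lower, and HMMR, E2F6 and BUB3 as higher, in 1 or more settings each, and ZWINT as lower under the trend alone. These names were chosen after their values were seen. The calls of MCM4 and MAD1L1 held in all alternatives, at adjusted p-values of 6.17e-05 to 0.00936 and 0.000111 to 0.0151. The call count over all probe sets, 931, was 691 to 1151. With the replicate block it was 794, with 0 members and 2 further genes called, and a median member difference of -0.00392. Arrays sharing a replicate number correlated in their deviations at 0.0779 to 0.398, above 0.1 in 3 of 5 pairs. Of the 10 arrays, 4 correlated best with their own number among the arrays of the other group. The highest correlation, 0.398, was that of replicate 3, the only number whose 2 arrays each matched the other best. The labels do not say that the numbers pair arrays, so the main fit left them out. Whether arrays of 1 number share a batch was not tested. Permutation p-values of single probe sets were left unadjusted, since adjustment over the members alone would rest on a list chosen with results known. Signal over background limits UBE2C and the dimmest probe sets of MAD2L1, BIRC5, E2F1 and CDC25A.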
